A study of Mus musculus with 2 samples.

Results

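Matricellular proteins are secreted into the extracellular matrix, where they act on cells through surface receptors and growth factors and contribute little to the mechanical scaffold. They include the thrombospondins, the tenascins, osteopontin, SPARC, periostin and the CCN family of cysteine-rich proteins, and fibroblasts make many of them during development, wound repair and fibrosis. The 10 genes examined were Sparc, Spp1, Postn, Tnc, Thbs1, Thbs2, Ctgf, Cyr61, Nov and Wisp1, a list of names drawn up with earlier results of these data known. Each had exactly 1 entry among the 29126 entries of the deposited expression table, and all 10 entries had the status OK, the label that Cuffdiff gives an entry it could quantify.

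The values come from strand-specific mRNA-seq of mouse embryonic fibroblast (MEF) lines, with 1 Dnmt1+/+ library and 1 Dnmt1-/- library. The cells called Dnmt1-/- carry a hypomorphic allele on both copies of Dnmt1, the gene of the maintenance DNA methyltransferase, and both lines are null for the p53 gene. The strain is given as unknown and no age of the embryos is stated. The comparison asks how gene expression differs in cells that have lost most of their DNA methylation. With 1 library per genotype there was no replicate error, no test was possible, and every value describes these 2 libraries. Expression is given as RPKM, a read count scaled to transcript length and to the number of mapped reads, so levels can be compared between genes within a library. A change is the difference of log2(RPKM + 0.1), Dnmt1-/- minus Dnmt1+/+, a scale that understates changes of low genes. The deposited values come without read counts, and counting intervals are not given.

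Dnmt1 itself fell from 65.2 RPKM in Dnmt1+/+ to 14.5 RPKM in Dnmt1-/- MEFs. The lines also differed in sex-linked transcripts, since Xist was at 0.00648 and 37.0 RPKM, and Ddx3y, a Y-linked gene, was at 13.9 RPKM and listed at 0. Differences between the lines other than the Dnmt1 genotype therefore cannot be told apart from it. Fibroblast markers were abundant in sum, with 5999 RPKM over 8 genes in Dnmt1+/+ and 3714 RPKM in Dnmt1-/-, but single markers differed. Of the 8, 3 were more than 2-fold lower, Thy1 (4.84 to 0.129 RPKM), Fn1 (663.7 to 235.5 RPKM) and Col1a2 (1241 to 475.9 RPKM). Pdgfra alone was more than 2-fold higher, from 6.95 to 18.7 RPKM. Over all genes with a symbol and at least 1 RPKM in a library, 10.9% were lower and 8.47% higher. The median log2 change of the 8 markers was -0.81. Endothelial markers summed to 0.461 and 0.679 RPKM over 5 genes, and epithelial markers to 0.321 and 2.19 RPKM over 5 entries, of which the highest in Dnmt1-/- was the joint entry of Krt14 and Krt17. Osteoblast markers summed to 6.46 and 7.17 RPKM over 5 genes, nearly all of it Runx2, with Ibsp listed at 0 in both libraries. Smooth muscle markers, over 6 entries, summed to 2037 and 2088 RPKM, most of it Acta2 and Tagln. Myh11 and Des were below 1 RPKM in both libraries. Of the 4 entries that reached 1 RPKM, 1 was more than 2-fold higher, an entry of Cnn1 at 60.2 and 134.2 RPKM. The other entry of Cnn1 was at 12.5 and 18.3 RPKM. In bulk RNA, fewer cells of a type and less RNA per cell cannot be told apart.

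The promoter sequences of 4 members are shown because these genes represent the changes described below: higher (Thbs2 and Cyr61), lower (Postn) and nearly equal (Sparc) in Dnmt1-/- MEFs. Each run is the 250 bases upstream of the start site in RefSeq (GRCm38.p6), written 5′ to 3′ along the gene, and each matched the mm9 genome at exactly 1 place on its chromosome. In mm9 these are chr17:14831270-14831519 for Thbs2 (minus strand), chr3:145312950-145313199 for Cyr61 (minus strand), chr3:54164779-54165028 for Postn (plus strand) and chr11:55233583-55233832 for Sparc (minus strand). Capitals mark TATAAA, the TATA box sequence, and CATTCC, the core sequence bound by TEAD factors, on either strand.
Thbs2: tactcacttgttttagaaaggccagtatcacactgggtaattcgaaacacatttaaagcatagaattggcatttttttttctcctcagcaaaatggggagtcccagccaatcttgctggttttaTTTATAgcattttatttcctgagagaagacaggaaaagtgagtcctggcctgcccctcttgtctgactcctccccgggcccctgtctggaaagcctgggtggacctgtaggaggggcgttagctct
Cyr61: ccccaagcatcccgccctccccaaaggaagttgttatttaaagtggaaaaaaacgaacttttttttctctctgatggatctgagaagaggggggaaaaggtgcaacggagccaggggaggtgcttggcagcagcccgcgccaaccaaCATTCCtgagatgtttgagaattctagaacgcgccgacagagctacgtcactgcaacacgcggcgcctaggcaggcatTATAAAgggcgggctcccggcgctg
Postn: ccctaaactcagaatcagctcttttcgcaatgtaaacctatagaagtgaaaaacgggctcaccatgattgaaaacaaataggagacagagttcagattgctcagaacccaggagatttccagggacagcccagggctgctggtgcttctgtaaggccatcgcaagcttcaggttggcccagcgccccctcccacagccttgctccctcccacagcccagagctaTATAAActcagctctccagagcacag
Sparc: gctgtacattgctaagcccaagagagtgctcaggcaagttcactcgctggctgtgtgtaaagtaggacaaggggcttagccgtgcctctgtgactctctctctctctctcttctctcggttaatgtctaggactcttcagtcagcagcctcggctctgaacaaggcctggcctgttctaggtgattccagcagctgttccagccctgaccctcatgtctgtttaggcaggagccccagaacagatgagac

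Of the 10 genes, 6 had promoters in the RefSeq table, with 9 promoters in all: Cyr61 (listed there as Ccn1), Postn, Sparc, Spp1, Thbs2 and Tnc. Thbs1, Ctgf, Nov and Wisp1 were not in it. Cyr61 stood apart in CpG content, with 15 CpG dinucleotides in 250 bases and a ratio of observed to expected CpG of 0.801. Its GC content of 54.8% was near the 54% of Sparc. The median over 32851 RefSeq promoters was 6 CpG and a ratio of 0.373, and 18.9% of promoters had a ratio at least as high as that of Cyr61. The other members ranged from 3 CpG in Thbs2 to 10 in one of the promoters of Tnc. The printed promoters of Thbs2, Sparc and Postn were CpG-poor, with ratios of 0.219, 0.220 and 0.244. These are 1 gene each of those higher, nearly equal and lower in Dnmt1-/- MEFs. Cyr61, also higher, was not CpG-poor, and Thbs1 and Ctgf had no promoter to compare. A link between CpG content and direction was not tested. CATTCC was found in 1 of the 9 promoters, that of Cyr61, where it begins 103 bases upstream of the start, and in 12.6% of all RefSeq promoters. TATAAA was found in 6 of the 9 promoters, belonging to 5 genes, against 12.4% of all promoters. It begins 25 bases upstream of the start in Cyr61 and 26 bases upstream in Postn, whereas in Thbs2 it lies on the opposite strand, 126 bases upstream. In Spp1 it begins 211 bases upstream. The promoters of Tnc overlap and share 1 site, 205 or 126 bases upstream by the start taken, so that this site was counted for both. These are matches of letters and do not show that a factor binds.

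In Dnmt1-/- MEFs, 4 of the 10 genes exceeded a 2-fold rise, namely Thbs2, Thbs1, Cyr61 and Ctgf, and 1, Postn, was more than 2-fold lower. The other 5 (Sparc, Spp1, Tnc, Nov and Wisp1) stayed within 2-fold. All 10 had at least 1 RPKM in a library and so belong to the 11244 symbol-bearing genes past that limit, of which 8.47% exceeded a 2-fold rise and 10.9% a 2-fold fall. Past 4-fold were 3 of the 10 genes in the upward direction and 1 in the downward direction, against 4.45% and 3.44% of the 11244 genes. Among the 6493 genes that reached 10 RPKM in a library, the shares past 2-fold were 5.78% higher and 6.35% lower. Nov was not among these, and the same 4 and 1 genes were past 2-fold of the 9 that were. The median log2 change of the 10 genes was 0.20, and that of all 11244 genes was -0.14. The members were thus spread to both sides of the general shift, from Thbs2 at 4.12 to Postn at -3.67.

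**Figure D1:**
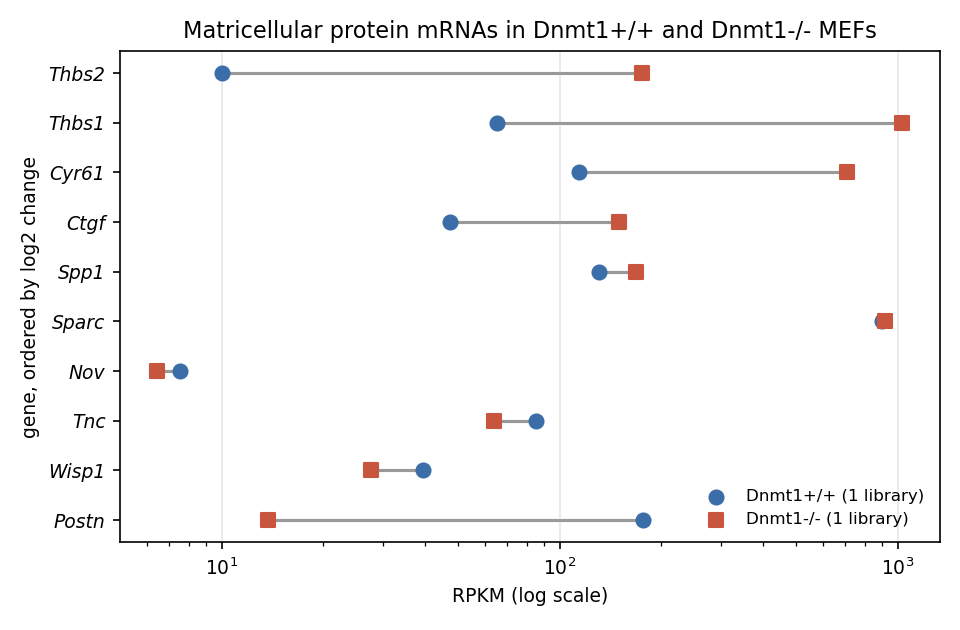
RPKM (log axis) of the 10 matricellular protein genes in the Dnmt1+/+ library (circles) and the Dnmt1-/- library (squares), 1 library each, with the genes ordered by log2 change. Thbs2, Thbs1, Cyr61 and Ctgf lie to the right in Dnmt1-/-, Postn lies far to the left (13.7 against 176.6 RPKM), and the symbols of Sparc nearly coincide.

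The summed RPKM of the 10 genes was 1574 in Dnmt1+/+ and 3268 in Dnmt1-/- MEFs. In Dnmt1+/+, Sparc alone made up 57.0% of this sum, followed by Postn at 11.2% and Spp1 at 8.33%. In Dnmt1-/- MEFs, Thbs1 made up 31.6%, Sparc 28.1% and Cyr61 21.7%, and Postn 0.421%. The order of levels was therefore rearranged at the top, where Thbs1 moved from the sixth place among the members to the first, and Postn from the second place to the ninth. Wisp1 held the eighth place and Nov the last place in both libraries. Without replicates it cannot be said which neighbours in these orders differ beyond their spread.

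Thrombospondin 1, the product of Thbs1, is a secreted trimer that binds CD36 and CD47, inhibits angiogenesis and can activate latent TGF-beta. Thbs1 (ENSMUSG00000040152, chromosome 2, 117937612 to 117952869, plus strand, mm9) was at 65.4 RPKM in Dnmt1+/+ and 1034 RPKM in Dnmt1-/- MEFs, which is 15.8-fold higher and a log2 change of 3.98. It ranked 1091st by level among the 11244 genes in Dnmt1+/+ and 24th in Dnmt1-/-, so in the latter it was among the most abundant messenger RNAs with a gene symbol. Its level passed that of Sparc, which had been 13.7 times that of Thbs1 in Dnmt1+/+.

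Thbs2 encodes thrombospondin 2, a related trimer that also inhibits angiogenesis and affects collagen fibril assembly. Thbs2 (ENSMUSG00000023885, chromosome 17, 14802507 to 14831269, minus strand) was at 10.02 RPKM in Dnmt1+/+ and 175.4 RPKM in Dnmt1-/- MEFs. The 17.5-fold difference, 4.12 on the log2 scale, placed it 146th of the 11244 genes ordered by rise, near Thbs1 at 168th. Both thrombospondins rose by similar factors, and Thbs1 kept a level 6.53 times that of Thbs2 in Dnmt1+/+ and 5.90 times in Dnmt1-/-.

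Cyr61 and Ctgf are CCN proteins that bind integrins and heparan sulphate, and both genes are standard targets of YAP and TAZ, the coactivators that the Hippo pathway restrains. Cyr61 (ENSMUSG00000028195, chromosome 3, 145309935 to 145312949, minus strand) was at 113.9 RPKM in Dnmt1+/+ and 709.0 RPKM in Dnmt1-/- MEFs, 6.22-fold higher with a log2 change of 2.64. It ranked 48th by level in Dnmt1-/-. Ctgf (ENSMUSG00000019997, chromosome 10, 24315248 to 24318489, plus strand) rose from 47.3 to 150.2 RPKM, which is 3.18-fold and a log2 change of 1.67. Cyr61 was above Ctgf in both libraries, 2.41 times in Dnmt1+/+ and 4.72 times in Dnmt1-/-.

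The other CCN members did not share this direction. Nov (ENSMUSG00000037362, chromosome 15, 54577257 to 54585594, plus strand), which encodes CCN3, had the lowest level of the 10 genes, 7.54 RPKM in Dnmt1+/+ and 6.45 RPKM in Dnmt1-/- MEFs. Its log2 change of -0.22 lay close to the median of all genes. Wisp1 (ENSMUSG00000005124, chromosome 15, 66722882 to 66754763, plus strand), which encodes the Wnt-inducible protein CCN4, was at 39.4 and 27.6 RPKM, a log2 change of -0.51. Of the remaining CCN genes, Wisp2 fell from 17.4 to 5.89 RPKM, and Wisp3 was at 0.0781 and 0.0315 RPKM. The 6 CCN genes thus comprised 2 that were more than 2-fold higher, 1 that was more than 2-fold lower, 2 within 2-fold, and Wisp3 below 1 RPKM. The shares over all 11244 genes were 8.47% higher and 10.9% lower.

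Periostin, the product of Postn, binds collagen and integrins and is made by fibroblasts of periosteum, valves and healing tissue. Postn (ENSMUSG00000027750, chromosome 3, 54165031 to 54194961, plus strand) fell from 176.6 RPKM in Dnmt1+/+ to 13.7 RPKM in Dnmt1-/- MEFs, so that its level in Dnmt1+/+ was 12.8 times that in Dnmt1-/- and its log2 change was -3.67. Ordered by fall, it was 142nd of the 11244 genes, and its rank by level went from 301st to 4701st. Tgfbi, which encodes a protein of the same fasciclin-domain family, was also more than 2-fold lower, at 40.7 RPKM in Dnmt1+/+ and 7.62 RPKM in Dnmt1-/-.

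Sparc encodes osteonectin, a collagen-binding glycoprotein needed for collagen deposition. Sparc (ENSMUSG00000018593, chromosome 11, 55208002 to 55233582, minus strand) was at 897.3 RPKM in Dnmt1+/+ and 918.4 RPKM in Dnmt1-/- MEFs, a log2 change of 0.03. It ranked 32nd and 30th by level and was the member with the smallest change. Of the fibroblast collagens, Col1a1 was at 1448 RPKM in Dnmt1+/+ and 897.7 RPKM in Dnmt1-/-, within 2-fold. Col1a2 was at 1241 and 475.9 RPKM, more than 2-fold lower.

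Spp1 encodes osteopontin, a phosphoprotein with an RGD integrin-binding site that also binds CD44. Spp1 (ENSMUSG00000029304, chromosome 5, 104864137 to 104870069, plus strand) was at 131.0 RPKM in Dnmt1+/+ and 168.7 RPKM in Dnmt1-/- MEFs, a log2 change of 0.36. Osteopontin is also made by macrophages, and of 6 macrophage markers Csf1r went from 0.0702 to 6.08 RPKM and Cd68 from 0.596 to 3.63 RPKM, while Ptprc and Emr1 were listed at 0 in both libraries. Summed over the 6 markers the level was 0.681 RPKM in Dnmt1+/+ and 9.77 RPKM in Dnmt1-/-. Their part in the level of Spp1 was not tested. Tenascin-C, a large hexameric glycoprotein encoded by Tnc (ENSMUSG00000028364, chromosome 4, minus strand), was at 85.1 and 63.9 RPKM, a log2 change of -0.41. Its annotated span is 63620819 to 63681760, and the RefSeq starts lie 26210 and 26289 bases upstream of it.

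**Figure D2:**
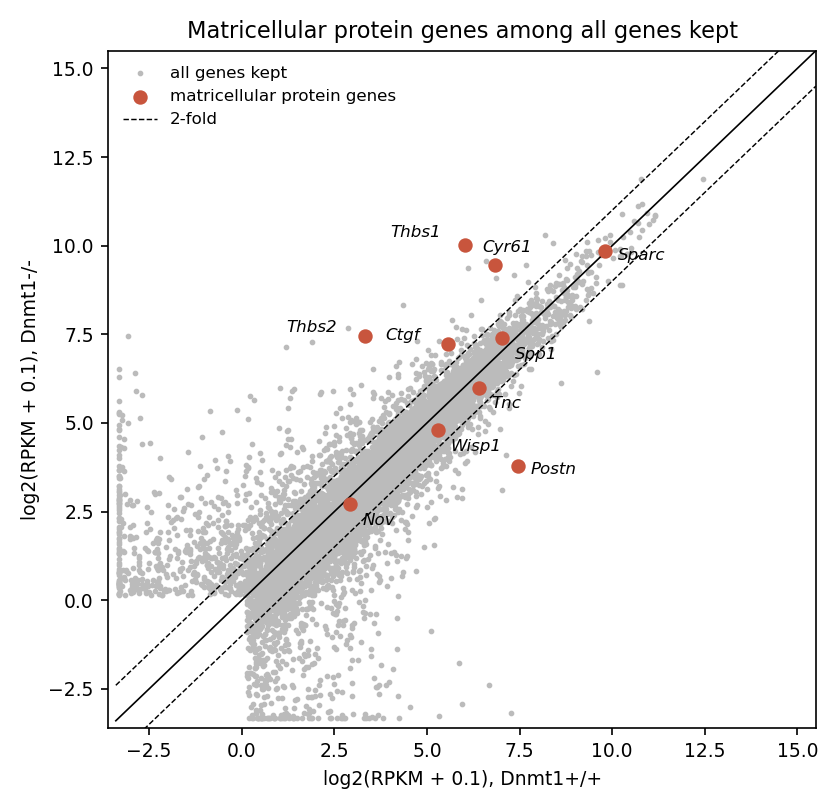
Log2(RPKM + 0.1) in Dnmt1-/- against Dnmt1+/+ MEFs for the 11244 genes kept (grey) and the 10 matricellular protein genes (red), with the line of equality and dashed lines at 2-fold. Thbs1, Thbs2, Cyr61 and Ctgf lie above the upper dashed line and Postn below the lower one, while Sparc lies near the line of equality among the most abundant genes.

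The nearest expressed neighbours were examined to see whether they moved with the members. For each gene the nearest entry on either side with a symbol and at least 1 RPKM in a library was taken. The neighbours of Thbs1, Fam98b at a log2 change of 0.15 and Gpr176 at -0.23, stayed within 2-fold. So did those of Postn, Ufm1 at 0.15 and Fam48a at -0.49, and those of Cyr61, Znhit6 at 0.98 and Ddah1 at -0.70. On one side of Ctgf, Stx7 was at 0.01, and on the other Enpp1 rose from 2.44 to 11.5 RPKM. Wisp1 lies 6.11 kb from Ndrg1, which fell from 42.2 to 20.8 RPKM, a log2 change of -1.02. On the other side of Wisp1, Sla was at 1.59 and 0.546 RPKM, a log2 change of -1.39. Both neighbours of Wisp1 were thus past a 2-fold fall, although Sla reached 1 RPKM in Dnmt1+/+ alone. Nov lay between Tnfrsf11b, which fell from 16.2 to 2.40 RPKM, and Enpp2, which rose from 2.20 to 20.9 RPKM. The neighbours of Sparc (Slc36a1 at 0.49, Atox1 at 0.58) and Tnc (6330416G13Rik at -0.14, Trim32 at -0.61) stayed within 2-fold. Beside Spp1, Pkd2 was at 0.42, and Sparcl1, which reached 1 RPKM in Dnmt1-/- alone, was at 2.40. Over all genes kept, 8.47% exceeded a 2-fold rise and 10.9% a 2-fold fall.

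Of the 10 genes, Thbs2 had both of its neighbours past a 2-fold rise, although Wdr27 was taken as a neighbour through its Dnmt1-/- level alone, so that its direction was fixed by the limit of 1 RPKM. On one side, 260.7 kb away, Smoc2 rose from 7.17 to 206.3 RPKM, a log2 change of 4.83. Smoc2 encodes a matricellular protein of the SPARC family. On the other side, 124.4 kb away, Wdr27 was at 0.244 and 2.53 RPKM. Between Dact2, whose entries were at 0.228 and 2.58 RPKM in Dnmt1+/+ and 0.382 and 2.46 RPKM in Dnmt1-/-, and Phf10, which went from 45.9 to 24.4 RPKM, the table has 9 entries, Thbs2 included, over 738.9 kb. Each of the 9 exceeded a 2-fold rise in Dnmt1-/- MEFs, with log2 changes from 1.72 to 6.33. Of these, 5 have no gene symbol, and their midpoints lie 92.3 to 99.5 kb from the Thbs2 start towards Smoc2, downstream of Thbs2, and 2 of the 5 were listed at 0 in Dnmt1+/+. The entry 4930474M22Rik has the same locus as Smoc2, may share reads with it, and was below 1 RPKM in both libraries. Among the 9, only Smoc2, Thbs2 and 1 entry without a symbol, at 1.32 RPKM, reached 1 RPKM in Dnmt1+/+. The others were lower there, and the share of such low entries past 2-fold over the whole table was not computed. The 9 entries do not stand for 9 separate loci, since 4930474M22Rik has that of Smoc2 and the 5 without a symbol lie close together. This interval and its limits were chosen after its values were seen, and it ends on either side at entries not past a 2-fold rise. That all 9 were higher thus follows from the choice of limits.

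**Figure D3:**
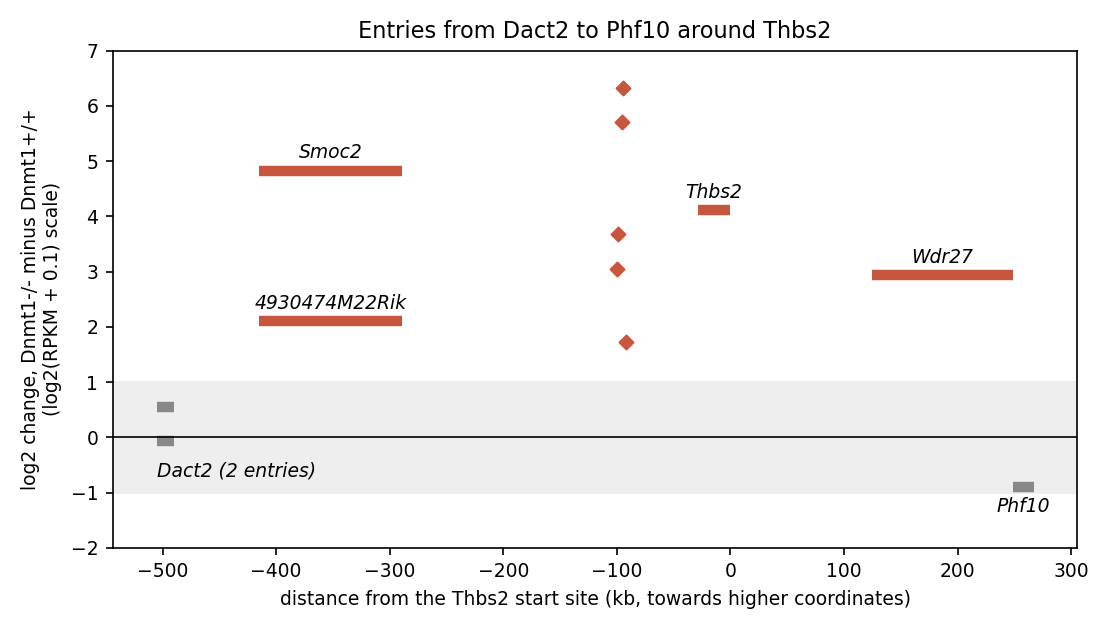
Log2 change (Dnmt1-/- minus Dnmt1+/+, log2(RPKM + 0.1) scale) of each entry from Dact2 to Phf10 against the distance in kb from the Thbs2 start, with bars for named entries, diamonds for entries without a symbol and grey shading for changes within 2-fold. All 9 entries between the outer genes lie above the shading, from 1.72 to 6.33, and most of them were below 1 RPKM in Dnmt1+/+. The limits of the interval were chosen after its values were seen.

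Upstream of Cyr61, an entry without a symbol at chr3:145313257-145313566, just beyond the printed promoter, was at 0.192 RPKM in Dnmt1+/+ and 2.46 RPKM in Dnmt1-/- MEFs. The next such entry, at chr3:145313645-145314932, was within 2-fold, with a log2 change of 0.75. Within 10 kb of Wisp1 were 4 more, with log2 changes of -1.03, -0.75, 0.77 and -3.30, and no other member had one. The file gives no strand for these entries. Spp1 is the last of a row of related genes for secreted phosphoproteins of bone and tooth, which with Sparcl1 span 361.9 kb of chromosome 5. Its relatives were low, since Dspp, Ibsp and Mepe were listed at 0 in both libraries and Dmp1 was at 0.0616 and 0.0396 RPKM. Sparcl1, at the other end, was at 0.191 and 1.43 RPKM, and Spp1 was thus the one abundant messenger RNA of the row in either library.

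Beyond the members, 20 relatives from the same protein families had 21 entries, of which 9 reached 1 RPKM in a library. More than 2-fold higher were 5 of them, Smoc2, Comp, Tnxb, Tnn and Sparcl1, and of these all but Smoc2 passed 1 RPKM through Dnmt1-/- alone, Comp with 0.344 and 4.96 RPKM and Tnxb with 0.118 and 1.96 RPKM. More than 2-fold lower were 3, Tgfbi, Wisp2 and Thbs3, the last of which went from 32.6 to 14.1 RPKM. Fstl1, the most abundant relative, was at 241.4 and 455.6 RPKM, just within 2-fold with a log2 change of 0.92. The thrombospondins were split, as Thbs1, Thbs2 and Comp were higher, Thbs3 was lower and Thbs4 was listed at 0 in both libraries.

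Among the receptors that bind these proteins, 16 genes had 17 entries, 12 of them at 1 RPKM or more in a library, with 1 past 2-fold upward and 2 past 2-fold downward, against 8.47% and 10.9% of all genes kept. Itga5, a fibronectin receptor subunit, rose from 30.0 to 65.4 RPKM. The falls were those of Itga8, from 2.01 to 0.0487 RPKM, and Itgb8, from 1.49 to 0.136 RPKM, both of which passed 1 RPKM through Dnmt1+/+ alone, and where 10 RPKM was required 0 receptors were past 2-fold downward. The abundant receptors changed less, as Itgb1 was at 319.5 and 439.0 RPKM and Lrp1, which clears thrombospondins from the cell surface, at 91.1 and 117.1 RPKM. Of the thrombospondin receptors, Cd47 was at 15.3 and 22.3 RPKM and Cd36 was listed at 0 in both.

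Since Ctgf and Cyr61 are YAP targets, the Hippo pathway and 21 other YAP targets were examined. The 15 entries of the 13 core genes had a median log2 change of 0.09, none was more than 2-fold higher, and 1, Tead2, was more than 2-fold lower, from 46.9 to 19.9 RPKM. Yap1 was at 40.5 and 61.5 RPKM and Wwtr1, the gene of TAZ, at 29.3 and 31.2 RPKM. Of the 18 target entries that reached 1 RPKM, 3 were more than 2-fold higher, Foxf2, Ankrd1 and Crim1. None was more than 2-fold lower, and the median of the 18 was 0.43. The shares over all genes kept were 8.47% higher and 10.9% lower. Ankrd1, a muscle ankyrin repeat protein often read beside Ctgf and Cyr61, rose from 69.4 to 661.0 RPKM, and Crim1 from 31.6 to 65.9 RPKM. Foxf2, at 0.0235 and 4.12 RPKM, passed 1 RPKM through Dnmt1-/- alone, and where 10 RPKM was required 2 genes of the pathway and targets together were past 2-fold upward. The other targets stayed within 2-fold, among them Amotl2 at 113.0 and 197.9 RPKM, so that Ctgf, Cyr61 and Ankrd1 stood above most of the list.

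TGF-beta induces Ctgf, Thbs1, Postn and Tgfbi. Of 10 genes of this pathway 2 were past 2-fold upward and 1 downward, against 8.47% and 10.9% of all genes kept. Smad7, an inhibitor induced by the pathway, rose from 4.25 to 12.7 RPKM, and Tgfbr1 fell from 6.49 to 3.16 RPKM. Tgfb1 was at 13.0 and 24.6 RPKM. Of the induced genes named above, Ctgf and Thbs1 were higher and Postn and Tgfbi lower in Dnmt1-/- MEFs. They are not a full list of genes that respond to TGF-beta, and its part in these changes was not tested.

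**Figure D4:**
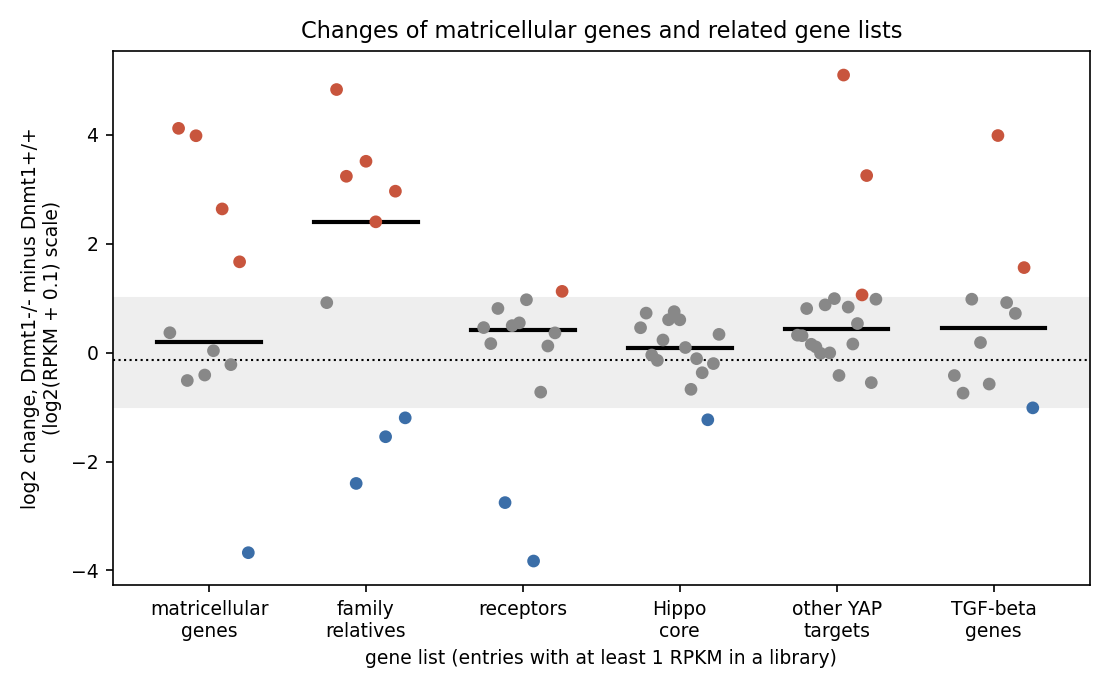
Log2 change (Dnmt1-/- minus Dnmt1+/+) of each entry with at least 1 RPKM in a library, by gene list, with a bar at each list's median, grey shading for changes within 2-fold and a dotted line at the median of all genes (-0.14). The matricellular genes spread from -3.67 to 4.12 around a median of 0.20, and the Hippo core genes lie nearly all within the shading.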

How the data were processed

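Messenger RNA of Dnmt1+/+ and Dnmt1-/- MEFs, 1 library each, was sequenced as 50 bp single-end reads. Per the labels and the study's methods, the authors used TopHat for alignment to mm9, Cufflinks for transcript assembly and Cuffdiff for abundance, and they deposited an RPKM value per library and a status for each entry. Program versions, any further scaling by Cuffdiff, and the use of strand in counting are not given in the sources used here. The columns wt and ko were taken as Dnmt1+/+ and Dnmt1-/-. The deposited values come without counts, the mapped read totals that the study states were not used here, and no interval or detection floor is given. A 0 is reported as listed at 0.

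Changes were computed as log2(RPKM + 0.1) differences. Background shares used entries with status OK, a symbol and at least 1 RPKM in one library or the other. The counting was tested on simulated data with planted changes. The members and lists were chosen with earlier results of these data known. All members are named, with some of the most abundant genes of the lists. So are the list genes past 2-fold that reached 1 RPKM in a library, except 1 that is not reported here. Col1a1, Col1a2 and the entries between Dact2 and Phf10 were named after their values were seen. Fjx1 of the YAP target list had no entry, and Tgfb2 is in 2 lists. Entries of a gene with more than 1 entry were counted separately. Gene positions are from GENCODE vM1 (mm9) and promoters from RefSeq. Protein sequences were not analysed here. The values of 1 gene of the TGF-beta list are not reported here. The tools were numpy 2.4.6, pandas 2.3.3 and matplotlib 3.10.9 under Python 3.11.15.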

Additional observations from a re-analysis of the deposited data

How the results depend on the processing

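No paired analysis was possible because each genotype has 1 library, and for the same reason no library could be left out. Over 10 alternatives the members past the fold in use numbered 4 upward, except 3 at 4-fold, and 1 downward. The 69 recomputed log2 changes of single members all kept their direction. A pseudocount or a filter cannot reverse a direction, so only centring on the all-gene median could have done so, and it did not. The members' median was 0.36 where at least 10 RPKM was required and 0.34 with changes centred on the all-gene median. The share of all genes past the fold was 14.1% higher and 23.7% lower at 1.5-fold and 4.45% and 3.44% at 4-fold, and the lower share was 7.12% with a pseudocount of 1 and 6.35% at 10 RPKM.

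The short lists moved more. Subtracting the median gave 6 Hippo and YAP target genes higher, 2 receptors higher, and 4 TGF-beta genes higher with 0 lower. At 1.5-fold there were 12 Hippo and YAP target genes higher and 2 lower, 3 receptors higher, and 5 TGF-beta genes higher and 2 lower. A filter of 10 RPKM left 1 relative higher and 0 receptors and 0 TGF-beta genes lower. A mean of at least 1 RPKM left 3 relatives higher and 1 receptor lower, no filter gave 2 receptors higher, and a pseudocount of 1 gave 0 TGF-beta genes lower. RPKM values without replicates or counts limit all of these to a description of the 2 libraries.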
